A study of Mus musculus with 48 samples.

Results

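The effect of a pancreatic tumor on the tibialis anterior muscle was examined at a single time of day, 08:00, which corresponds to circadian time (CT) 26, in 8 of the 48 RNA-seq libraries of the series. The members were taken from the labels: 4 libraries of mice with KPC tumors were set against 4 libraries of tumor-free controls, with genotype as a covariate. All were male mice of 39 to 55 weeks, kept on a 12-h light/dark cycle and then in constant darkness from CT0, and each library came from a separate mouse. KPC mice had received KPC FC1245 cells, a line derived from a mouse pancreatic tumor, in the pancreas, and control mice had received an injection of sterile PBS there. In each condition 2 mice were labelled C57BL/6J and called WT, although the design text of the series describes these mice as FoxP1fl/fl without Cre. The other 2 carried the genotype Foxp1fl/fl; Acta1-cre and are called FoxP1SkmKO. In these mice the skeletal actin promoter drives Cre, so that Foxp1 is deleted in muscle fibers and not in the other cells of the muscle. There were thus 4 groups of 2 mice, namely WT control, WT KPC, FoxP1SkmKO control, and FoxP1SkmKO KPC. A library held between 14599024 and 19235435 counts assigned to genes.

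Tumor-bearing mice of this model lose muscle mass and force, a syndrome called cachexia. Wasting muscle is known for a rise of ubiquitin ligases that mark contractile proteins for breakdown, for autophagy, and for lower expression of the mitochondrial respiratory chain, which passes electrons from NADH and succinate to oxygen and uses the resulting proton gradient to make ATP. The muscle clock is a loop in which the activators BMAL1 and CLOCK bind E-boxes, DNA elements in the promoters of the Period and Cryptochrome repressors and of output genes such as Dbp. CT26 falls early in the rest phase of a nocturnal animal.

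The labels were first checked against the targeted gene and the other libraries. Foxp1, a forkhead repressor, was at 7.05 and 5.93 CPM (counts relative to the library size, scaled by the TMM method) in WT control, 7.03 and 7.56 in WT KPC, 8.10 and 7.97 in FoxP1SkmKO control, and 8.21 and 5.76 in FoxP1SkmKO KPC mice. These levels overlapped between the genotypes. A count over the whole gene holds the exons outside the deletion and the RNA of cells without Cre, so it does not check the genotype, which rests on the labels. Between KPC and control mice its log2 fold change was −0.02 ± 0.15 SE (adjusted p = 0.953).

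The 2 WT control libraries stood apart from the other 6. On the first principal component, which held 28.7% of the variance, they were at −43.4 and −21.8, and the other 6 lay between 2.80 and 24.8. Between the FoxP1SkmKO and the WT control mice, 244 of 14314 genes tested were higher (1.7%) and 62 lower (0.433%) at an adjusted p under 0.05, and 18.6% had an unadjusted p under 0.05. Genotype and this pair of libraries cannot be told apart in that comparison. Most changes below were therefore looked up in the FoxP1SkmKO mice, whose controls are separate from that pair. For some single genes, Cpt1b, Fabp3, Ncam1, and Psmb10 among them, no value in FoxP1SkmKO mice is given. These mice are also part of the comparison over both genotypes, so for changes chosen there the lookup is a description. In those mice the library of FoxP1SkmKO KPC mouse 2 lay farthest along the second component, at 27.7, and the values that rest on it are named.

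The defining markers of muscle fibers (Acta1, Ckm, Myh1, Myh4, Tnnt3, and Mylpf) were the dominant markers in all 8 libraries, at a summed level of 126400 to 141700 CPM. Markers of other cells moved with the comparison in part. All 5 erythroid genes tested had an unadjusted p under 0.05 and were lower in KPC mice, against 8.3% of all genes lower. The summed level of the 7 erythroid markers was 196 to 261 CPM in WT control against 126 to 141 CPM in WT KPC mice. It was 163 to 195 CPM against 121 to 162 CPM in FoxP1SkmKO mice. In the 40 libraries of other times this sum had a median of 145 CPM and a highest value of 250 CPM. The 5 erythroid genes had a median length of 768 bases, and fold changes in WT mice followed gene length, as given below. Schwann cell markers were lower in 4 of 6 at the same threshold. Their summed levels were 62.6 to 71.4 CPM in FoxP1SkmKO control and 39.3 to 58.6 CPM in FoxP1SkmKO KPC mice, with the 39.3 CPM in mouse 2. The 9 macrophage markers gave 53.6 to 63.1 CPM in WT KPC against 55.5 to 64.0 CPM in WT control mice, and none had an unadjusted p under 0.05. The 6 carcinoma and pancreas markers summed to 1.64 to 4.11 CPM in FoxP1SkmKO KPC mice and to at most 0.837 CPM in the other groups, with Prss2 and Cpa1 at 0 in all 8 libraries. Of these, the epithelial keratin Krt8 had 10 and 24 raw counts in FoxP1SkmKO KPC mice and at most 1 in the others. Krt18 had 53 raw counts in FoxP1SkmKO KPC mouse 2, the library with the 4.11 CPM, and at most 3 in any other. Of the smooth muscle, fibroblast, and endothelial markers, 3 of 5, 2 of 8, and 2 of 8 were lower at that threshold and 0 higher. Over all genes, 8.3% were lower and 9.52% higher. Of the 8 adipocyte markers tested, 1 was lower at that threshold over both genotypes (median log2 fold change −0.62) and 3 in WT mice (median −1.38), and the summed level of the adipocyte markers was 19.5 to 33.0 CPM in WT control, 11.7 to 26.4 CPM in WT KPC, 35.7 to 61.5 CPM in FoxP1SkmKO control, and 30.3 to 37.5 CPM in FoxP1SkmKO KPC mice. The part of these cells in the changes below was not tested, and in whole muscle fewer cells of a type and less RNA per cell cannot be told apart.

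Across both genotypes, 4 genes passed an adjusted p of 0.05 with edgeR's quasi-likelihood test. Slc8a3 and Tnfrsf19 rose and S100a1 and Atp5e fell in KPC mice, which is 0.014% of genes tested in each direction. In the FoxP1SkmKO mice alone all 4 had unadjusted p values of 8.8e-05 to 0.00027 by the same test. Those mice are part of the comparison that chose these genes, so these values are a description and not a separate test. Of the 2550 genes at an unadjusted p under 0.05 over both genotypes, 2508 had the same direction in FoxP1SkmKO mice. The choice of genes used those mice, so this agreement was in part fixed by it and is a description. Of the 2550, 687 had the same direction and an unadjusted p under 0.05 in FoxP1SkmKO mice, with the same limit. At an unadjusted p under 0.05, 1362 genes were higher (9.52%) and 1188 lower (8.3%). The number called changed with the fit. The fit on all 48 libraries, with 15637 genes tested, called 601 genes higher (3.84%) and 381 lower (2.44%) for the same 4-against-4 contrast, and DESeq2 on the 8 libraries called 314 higher and 261 lower. Without WT control mouse 1, WT control mouse 2, or FoxP1SkmKO control mouse 1, edgeR called 0, with 1901, 2095, and 2290 genes at an unadjusted p under 0.05. Without FoxP1SkmKO KPC mouse 1 it called 91.

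Slc8a3 encodes a sodium/calcium exchanger of the plasma membrane (chr12:81244689-81379954 of mm39, minus strand). It was at 81.1 and 93.7 CPM in WT control, 138 and 133 CPM in WT KPC, 109 and 132 CPM in FoxP1SkmKO control, and 188 and 176 CPM in FoxP1SkmKO KPC mice. All 4 KPC libraries were above all 4 control libraries, which held for 3.22% of genes. The log2 fold change was 0.61 ± 0.08 SE (adjusted p = 0.024), with 0.63 in WT and 0.59 in FoxP1SkmKO mice. The change was larger at CT26 than over the other 5 times by 0.54 on the log2 scale (adjusted p = 0.00081).

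Tnfrsf19, a receptor of the tumor necrosis factor receptor family (chr14:61201324-61283939 of mm39, minus strand), was at 14.4 and 18.9 CPM in WT control, 41.2 and 25.7 CPM in WT KPC, 23.1 and 30.5 CPM in FoxP1SkmKO control, and 56.1 and 49.5 CPM in FoxP1SkmKO KPC mice. KPC mice were above the controls of their own genotype in every case, but WT KPC mouse 2 lay below FoxP1SkmKO control mouse 2. The log2 fold change was 0.99 ± 0.14 SE (adjusted p = 0.028). S100a1, a calcium sensor that binds the calcium release channel and titin (chr3:90418341-90421699 of mm39, minus strand), was at 87.8 and 83.3 CPM in WT control, 61.3 and 57.7 CPM in WT KPC, 67.9 and 61.0 CPM in FoxP1SkmKO control, and 47.9 and 45.9 CPM in FoxP1SkmKO KPC mice. It fell by 0.49 ± 0.07 SE on the log2 scale (adjusted p = 0.028), and the genotypes were again offset from each other. Tnfrsf19 and S100a1 were outside the rule for named genes, because the 4 and 4 libraries overlapped, and were named after their values were seen.

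Atp5e, the epsilon subunit of the mitochondrial ATP synthase (chr2:174302865-174305898 of mm39, minus strand), was at 80.9 and 77.7 CPM in WT control, 60.9 and 49.0 CPM in WT KPC, 70.2 and 63.9 CPM in FoxP1SkmKO control, and 47.6 and 44.3 CPM in FoxP1SkmKO KPC mice. All 4 KPC libraries were below all 4 control libraries, as for 2.74% of genes. The log2 fold change was −0.54 ± 0.08 SE (adjusted p = 0.032), with −0.53 in WT and −0.55 in FoxP1SkmKO mice. Its difference from the other 5 times was −0.50 and had an adjusted p of 0.079.

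**Figure D1:**
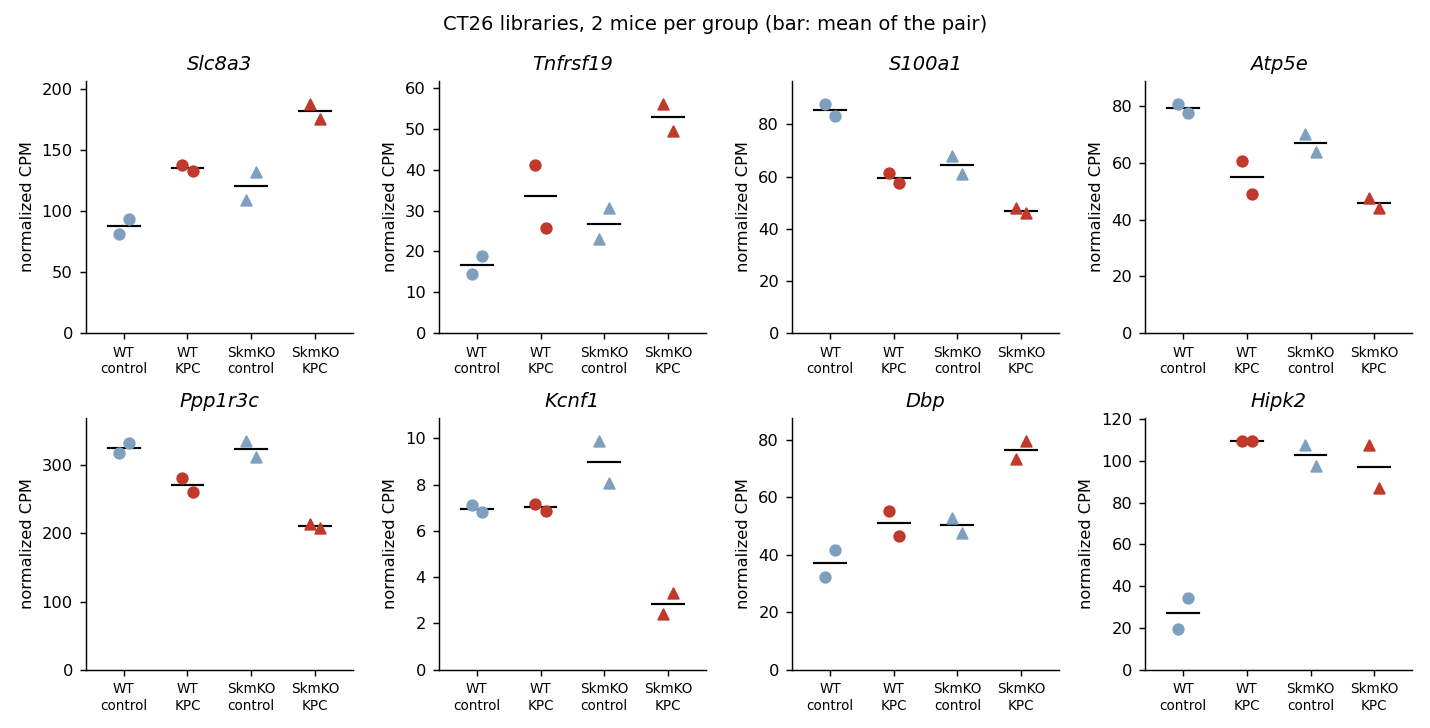
Normalized CPM (y axes, from 0) of 8 genes in the 8 CT26 libraries, by group (x axes). Points are mice, circles for WT and triangles for FoxP1SkmKO, blue for control and red for KPC, and bars are means of 2. Slc8a3 and Tnfrsf19 were higher and S100a1 and Atp5e lower in KPC mice of both genotypes, whereas Kcnf1 differed in FoxP1SkmKO mice and Hipk2 was low in the 2 WT control mice alone.

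Within the FoxP1SkmKO mice, 2 genes passed the test (0.014%), both lower, and 547 genes were higher (3.82%) and 546 lower (3.81%) at an unadjusted p under 0.05. Ppp1r3c, a targeting subunit that brings protein phosphatase 1 to glycogen and favors glycogen synthesis, was at 336 and 312 CPM in FoxP1SkmKO control and 214 and 207 CPM in FoxP1SkmKO KPC mice, a log2 fold change of −0.62 ± 0.09 SE (adjusted p = 0.043). In WT mice it was at 318 and 332 CPM in control and 282 and 260 CPM in KPC mice, a log2 fold change of −0.26 that did not pass (adjusted p = 0.11). The 4 KPC libraries again lay below the 4 control libraries. Kcnf1, a potassium channel subunit that is silent on its own, was at 9.90 and 8.08 CPM in FoxP1SkmKO control and 2.39 and 3.33 CPM in FoxP1SkmKO KPC mice. It fell by 1.64 on the log2 scale (adjusted p = 0.043). In WT mice all 4 libraries lay between 6.83 and 7.16 CPM, and the difference of its effect between the genotypes did not pass the test across all genes (−1.65, adjusted p = 0.18). Neither gene was called without FoxP1SkmKO KPC mouse 2, at log2 fold changes of −0.60 for Ppp1r3c and −1.91 for Kcnf1, or without FoxP1SkmKO control mouse 1, at −0.57 and −1.49. Ppp1r3c was also not called without FoxP1SkmKO control mouse 2, at −0.68. Without FoxP1SkmKO KPC mouse 1, 37 genes were called.

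Promoter sequences of some genes described here are shown so that the elements of the clock and of mitochondrial genes can be read beside the values. They are the 250 bases before the annotated start in RefSeq on GRCm38.p6, an older build than the mm39 of the counts, from 5′ to 3′ on the strand of the gene. Capitals mark the E-box CACGTG, the D-box TTATGTAA bound by DBP and its relatives, and the NRF1 core GCATGCGC, each searched on both strands. Slc8a3 and Atp5e passed the test over both genotypes, and Ppp1r3c passed in FoxP1SkmKO mice. Sdhb of the respiratory chain, Mrpl20 of the mitochondrial ribosome, and Per3 of the clock are shown because their windows hold one of these elements, which most windows of their lists did not.
Slc8a3, chr12:81333181-81333430, minus strand: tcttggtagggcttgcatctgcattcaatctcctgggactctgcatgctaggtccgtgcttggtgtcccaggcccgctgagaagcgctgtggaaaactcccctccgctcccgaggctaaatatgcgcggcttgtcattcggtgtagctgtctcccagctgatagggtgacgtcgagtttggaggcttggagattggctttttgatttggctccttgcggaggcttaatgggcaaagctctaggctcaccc
Atp5e, chr2:174464102-174464351, minus strand: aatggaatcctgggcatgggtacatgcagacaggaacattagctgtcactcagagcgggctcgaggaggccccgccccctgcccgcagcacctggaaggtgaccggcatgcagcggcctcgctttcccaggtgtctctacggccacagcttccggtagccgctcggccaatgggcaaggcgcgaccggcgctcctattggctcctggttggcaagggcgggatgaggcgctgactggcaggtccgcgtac
Ppp1r3c, chr19:36736605-36736854, minus strand: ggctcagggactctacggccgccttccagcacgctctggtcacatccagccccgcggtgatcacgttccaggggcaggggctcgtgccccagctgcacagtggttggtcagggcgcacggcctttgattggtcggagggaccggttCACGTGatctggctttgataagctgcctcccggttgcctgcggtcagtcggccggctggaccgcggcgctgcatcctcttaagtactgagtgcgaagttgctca
Sdhb, chr4:140961021-140961270, plus strand: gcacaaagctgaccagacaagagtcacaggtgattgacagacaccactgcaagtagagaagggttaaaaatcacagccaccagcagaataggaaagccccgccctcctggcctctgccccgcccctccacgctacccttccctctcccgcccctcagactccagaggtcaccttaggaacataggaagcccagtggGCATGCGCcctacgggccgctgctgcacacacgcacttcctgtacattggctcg
Mrpl20, chr4:155802628-155802877, plus strand: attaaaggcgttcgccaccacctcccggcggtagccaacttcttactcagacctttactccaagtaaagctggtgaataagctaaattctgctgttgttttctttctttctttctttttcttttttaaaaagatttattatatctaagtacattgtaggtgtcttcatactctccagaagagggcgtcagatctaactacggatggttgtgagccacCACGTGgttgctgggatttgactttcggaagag
Per3, chr4:151044666-151044915, minus strand: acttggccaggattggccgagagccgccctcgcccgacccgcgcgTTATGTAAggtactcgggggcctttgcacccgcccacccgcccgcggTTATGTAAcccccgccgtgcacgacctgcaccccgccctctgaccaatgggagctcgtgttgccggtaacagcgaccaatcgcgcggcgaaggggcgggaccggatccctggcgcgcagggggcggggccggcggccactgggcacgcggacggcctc

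The windows of Slc8a3 and Atp5e held none of these letters, and nor did that of Dbp. Ppp1r3c held an E-box that starts 104 bases before the gene, Mrpl20 an E-box at 33 bases, Sdhb an NRF1 core at 54 bases, and Per3 a D-box at 158 and at 205 bases. Of 32851 promoters, 6.02% held the E-box, 0.819% the D-box, and 2.26% the NRF1 core. The E-box was in 6 of 21 promoters of 16 clock genes (28.6%) in 3 of 36 of complex I (8.33%), in 4 of 38 of complexes II to V (10.5%), and in 7 of 75 of mitochondrial ribosomal genes (9.33%). The D-box was in 1 of the 21 clock promoters (4.76%), that of Per3. The NRF1 core was in 3 of 36 promoters of complex I (8.33%), 6 of 38 of complexes II to V (15.8%), 8 of 75 of mitochondrial ribosomal genes (10.7%), and 0 of 73 of cytosolic ribosomal genes. The forkhead letters TGTTTAC were in 0 of 36, 1 of 38, and 1 of 21 promoters of complex I, complexes II to V, and the clock, and in 3.17% of all promoters. A match is a description of the sequence and does not show binding.

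Of the nuclear genes of the respiratory chain, most were lower in KPC mice at an unadjusted p under 0.05. Complex I, which takes electrons from NADH, is represented here by 38 genes with Nduf symbols, Ndufa4 among them, and a symbol alone does not settle membership. Of these 38, 34 were lower and 0 higher at that threshold, against 8.3% of all genes lower. Their median log2 fold change was −0.25, against 0.002 over all genes. Of 45 genes of complexes II to V, 37 were lower and 0 higher, with a median of −0.24. Only Atp5e of these 83 genes passed the adjusted test in the 8-library fit, and 20 genes of complex I and 27 of complexes II to V fell with an adjusted p under 0.05 in the fit on 48 libraries, where 2.44% of all genes fell. In WT mice alone 18 and 22 passed, against 0.887% of all genes. In FoxP1SkmKO mice edgeR called 0 of them, and 9 and 16 were lower at an unadjusted p under 0.05, against 3.81% of all genes, with medians of −0.15 and −0.16. Without FoxP1SkmKO KPC mouse 2 the medians in FoxP1SkmKO mice were −0.13 and −0.13. Between the control pairs, which share the WT control libraries with the comparisons above, the same lists had medians of −0.26 and −0.27, lower in FoxP1SkmKO mice. Without WT control mouse 1, 30 and 34 genes were lower over both genotypes, with medians of −0.21 and −0.22.

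The summed level of complex I was 7346 and 6894 CPM in WT control, 5685 and 5744 CPM in WT KPC, 6146 and 5772 CPM in FoxP1SkmKO control, and 5563 and 5378 CPM in FoxP1SkmKO KPC mice. KPC libraries were lower in each genotype, and the WT control mice were the highest of the 8. Of the single genes, 11 of complex I and 14 of complexes II to V had all 4 KPC libraries below all 4 controls, against 2.74% of all genes, and 0 had them above. Several genes of the respiratory chain, Cox4i1, Cox7a1, Ndufs8, and Ndufb1 among them, shared an adjusted p of 0.0504 with Dbp, Hdac4, and Ppp1r3c over both genotypes.

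Cox4i1, a subunit of cytochrome c oxidase, was at 794 and 724 CPM in WT control, 567 and 560 CPM in WT KPC, 648 and 608 CPM in FoxP1SkmKO control, and 496 and 486 CPM in FoxP1SkmKO KPC mice. The groups did not overlap, and the log2 fold change was −0.39 ± 0.06 SE (adjusted p = 0.00023 over 48 libraries). Cox7a1, the heart and muscle isoform of another subunit of that complex, was at 137 and 128, 107 and 90.7, 124 and 107.5, and 76.9 and 82.6 CPM in the same order of groups. Its log2 fold change was −0.48 ± 0.08 SE, and it was lower by 0.54 in FoxP1SkmKO mice alone (unadjusted p = 0.00019).

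Ndufs8, an iron-sulfur subunit of complex I, was at 165.9 and 162 CPM in WT control, 129 and 126 CPM in WT KPC, 131 and 136 CPM in FoxP1SkmKO control, and 109 and 103 CPM in FoxP1SkmKO KPC mice, with a log2 fold change of −0.35 ± 0.06 SE. Every KPC library lay below every control library. Ndufb1 had a log2 fold change of −0.69 ± 0.12 SE, with 35.0 and 34.5 CPM in WT control and 15.2 and 15.6 CPM in FoxP1SkmKO KPC mice, but WT KPC mouse 1 (19.9 CPM) lay above FoxP1SkmKO control mouse 2 (18.4 CPM). Both fell in the fit on 48 libraries (adjusted p = 0.0013 and 0.00034). Sdhb, the iron-sulfur subunit of succinate dehydrogenase, was at 525 and 507 CPM in WT control, 453 and 416 CPM in WT KPC, 452 and 445 CPM in FoxP1SkmKO control, and 362 and 335 CPM in FoxP1SkmKO KPC mice. Its log2 fold change was −0.31 ± 0.06 SE, and −0.37 in FoxP1SkmKO mice (unadjusted p = 0.00085).

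Other genes of mitochondrial metabolism, some of them in the lists above, had values as follows. Sdha, the flavoprotein partner of Sdhb and a member of the list of complexes II to V, had a log2 fold change of 0.01 ± 0.06 SE, Cs, which encodes citrate synthase, of 0.02 ± 0.06 SE, and Ppargc1a, the coactivator that drives mitochondrial genes, of −0.05 ± 0.10 SE. Of 20 citrate cycle genes, 5 were lower and 1 higher at an unadjusted p under 0.05, and in FoxP1SkmKO mice 0 were past that threshold in either direction. Of the 13 genes encoded on mitochondrial DNA, 3 were lower, with a median of −0.08 that became 0.06 once a trend with gene length was taken out. Of these, mt-Co2 was at 1246 and 1352, 1054 and 1115, 669.5 and 662.5, and 525 and 520.4 CPM in WT control, WT KPC, FoxP1SkmKO control, and FoxP1SkmKO KPC mice. Both FoxP1SkmKO groups lay below both WT groups, and within each genotype the KPC mice lay below the controls. Of 32 genes of fatty acid oxidation, 14 were lower and 4 higher at an unadjusted p under 0.05, against 8.3% and 9.52% of all genes. In FoxP1SkmKO mice 6 were lower and 2 higher, with a median of −0.10 that was −0.04 without FoxP1SkmKO KPC mouse 2. Fabp3, a fatty acid carrier, had a log2 fold change of −0.37 ± 0.09 SE, and Cpt1b, which moves long-chain fatty acids into mitochondria, one of 0.70 ± 0.19 SE and rose in the fit on 48 libraries (adjusted p = 0.0062).

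**Figure D2:**
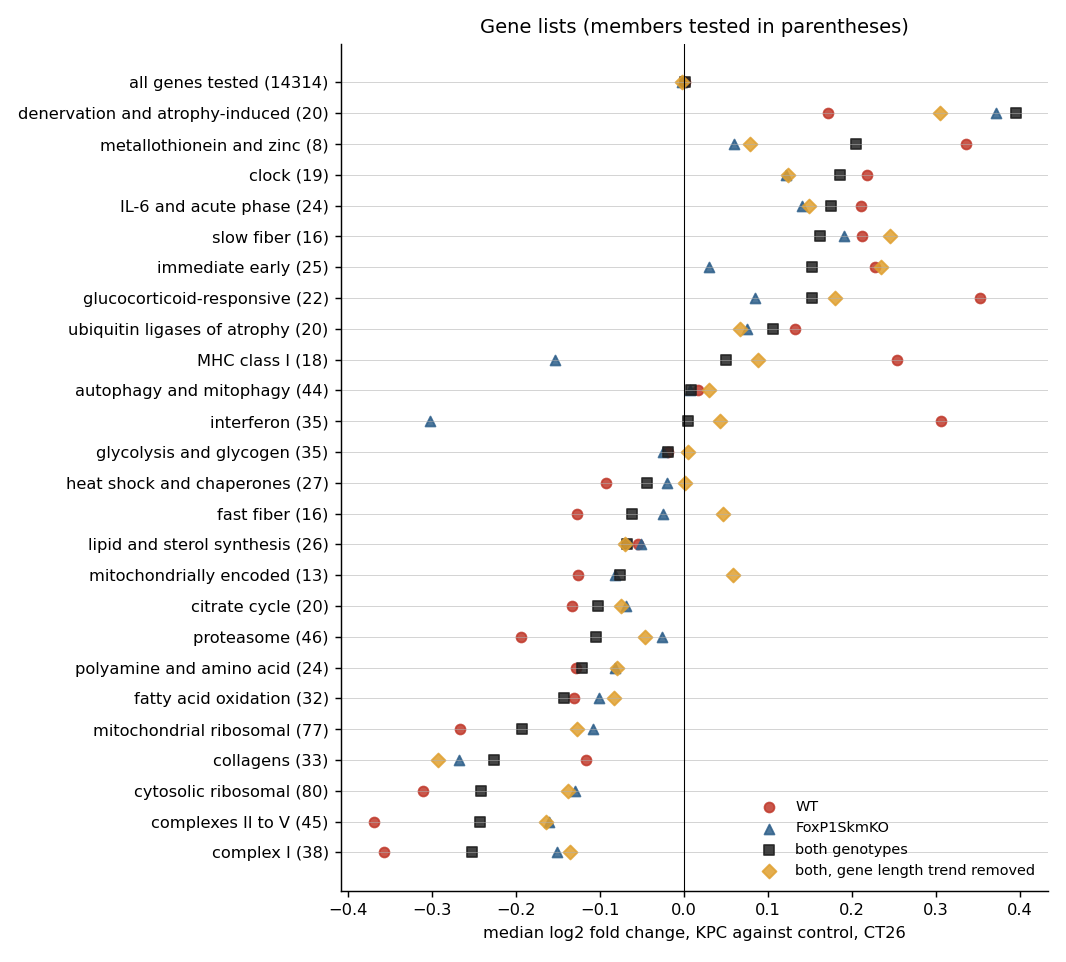
Median log2 fold change (x axis) of KPC against control mice at CT26 for 25 gene lists and all genes tested (y axis, number of members tested in parentheses), for WT, FoxP1SkmKO, both genotypes, and both after the trend with gene length was taken out. Complex I and complexes II to V had medians of −0.25 and −0.24 over both genotypes and −0.13 and −0.16 without the length trend, and the median of all genes was 0.002.

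Ribosomal genes are given by the same counts. Of 77 genes of the mitochondrial ribosome, which translates the messages of mitochondrial DNA, 38 were lower and 0 higher at an unadjusted p under 0.05, against 8.3% of all genes lower (median log2 fold change −0.19), and 18 fell in the fit on 48 libraries. In FoxP1SkmKO mice 15 were lower, against 3.81% of all genes. The median there was −0.11, and −0.12 without FoxP1SkmKO KPC mouse 2. Mrpl20 was at 18.5 and 18.3 CPM in WT control, 13.4 and 14.4 CPM in WT KPC, 18.1 and 18.1 CPM in FoxP1SkmKO control, and 11.7 and 11.1 CPM in FoxP1SkmKO KPC mice. KPC and control libraries were separate in both genotypes, with a log2 fold change of −0.53 ± 0.10 SE and of −0.67 in FoxP1SkmKO mice (unadjusted p = 0.00016). Of 80 genes of the cytosolic ribosome, 51 were lower and 1 higher (median −0.24), and 31 fell with 48 libraries. In FoxP1SkmKO mice 17 were lower and 3 higher, with a median of −0.13 with or without FoxP1SkmKO KPC mouse 2. Rps15 was at 163 and 153, 119.9 and 116, 144 and 126, and 116 and 104 CPM in the order above, with a log2 fold change of −0.36 ± 0.07 SE. After a trend with gene length was taken out, 28 genes of the mitochondrial ribosome (median −0.13) and 27 of the cytosolic ribosome (median −0.14) were lower at an unadjusted p under 0.05. In that fit 955 of all 14314 genes were lower and 941 higher. Many ribosomal genes have near-identical processed copies, so their counts depend on how shared reads were assigned. Of 46 proteasome genes, 7 were lower and 0 higher, and Psmb10, an inducible catalytic subunit, fell in WT mice (log2 fold change −0.72, adjusted p = 0.041).

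Of 19 clock genes, 10 were higher and 1 lower in KPC mice at an unadjusted p under 0.05, against 9.52% and 8.3% of all genes (median log2 fold change 0.19). In the 8-library fit edgeR called 0 of them and DESeq2 4, and 6 rose in the fit on 48 libraries, namely Dbp, Cry2, Per1, Per2, Per3, and Tef. In FoxP1SkmKO mice 6 were higher and 2 lower, against 3.82% and 3.81% of all genes. The median there was 0.12, and 0.05 without FoxP1SkmKO KPC mouse 2. Dbp, the output factor that binds D-boxes, was at 32.4 and 41.6 CPM in WT control, 55.4 and 46.5 CPM in WT KPC, 52.8 and 47.7 CPM in FoxP1SkmKO control, and 73.5 and 79.8 CPM in FoxP1SkmKO KPC mice. KPC mice lay above the controls of their own genotype, and WT KPC and FoxP1SkmKO control mice overlapped. The log2 fold change was 0.54 ± 0.09 SE (adjusted p = 0.0504 over 8 libraries and 0.013 over 48), and 0.61 in FoxP1SkmKO mice (unadjusted p = 0.00029).

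The repressors Cry2 and Per3 rose in the fit on 48 libraries (adjusted p = 0.018 and 0.011), with log2 fold changes of 0.27 ± 0.07 SE and 0.38 ± 0.10 SE over the 8. In FoxP1SkmKO mice alone their log2 fold changes were 0.32 and 0.30, with unadjusted p values of 0.0044 and 0.045. Per1 was at 8.79 and 11.3 CPM in WT control, 45.0 and 21.0 CPM in WT KPC, 30.4 and 42.7 CPM in FoxP1SkmKO control, and 34.2 and 67.6 CPM in FoxP1SkmKO KPC mice. The WT control pair was the lowest by far, and the 2 FoxP1SkmKO groups overlapped, with a log2 fold change of 1.72 in WT (adjusted p = 0.021) and 0.48 in FoxP1SkmKO mice (unadjusted p = 0.15). Per2 gave 1.79 and 3.71 CPM in WT control and 5.68 to 9.84 CPM in all 6 other libraries. Its log2 fold change of 0.56 turned to −0.09 when the 4 KPC libraries were set against the 2 FoxP1SkmKO controls. That fit had no genotype term, so the WT KPC libraries were set there against controls of the other genotype.

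Other clock genes did not pass the test over the 8 libraries. Nfil3, which competes with DBP at D-boxes, was lower, at 28.7 and 26.8, 19.3 and 25.6, 20.0 and 21.6, and 16.7 and 15.6 CPM in the order of groups used above. Its log2 fold change was −0.33 ± 0.10 SE (unadjusted p = 0.0048), and it differed from the other 5 times by −0.62 (adjusted p = 0.013). Arntl, which encodes BMAL1, had a log2 fold change of −0.24 ± 0.12 SE and Nr1d1, its repressor, of 0.07 ± 0.08 SE, and neither had an unadjusted p under 0.05.

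Among genes of muscle wasting, the main ubiquitin ligases did not pass the test. Trim63, which encodes MuRF1, had a log2 fold change of −0.02 ± 0.10 SE, and Fbxo32, which encodes atrogin-1, of 0.43 ± 0.21 SE (unadjusted p = 0.055). Fbxo32 was at 231 and 216 CPM in WT control, 173 and 444 CPM in WT KPC, 279.7 and 201 CPM in FoxP1SkmKO control, and 354 and 278 CPM in FoxP1SkmKO KPC mice, so that the 2 WT KPC mice lay on either side of all the others. Of 20 ligases, 6 were higher and 0 lower at an unadjusted p under 0.05, against 9.52% of all genes higher. With the length trend taken out 3 were higher (941 of all 14314 genes), and in FoxP1SkmKO mice 2 (3.82% of all genes). With edgeR 0 were called in the 8-library fit, 3 with DESeq2, and 4 rose with 48 libraries (3.84% of all genes). Traf6, a ligase of inflammatory signaling, was at 19.4 and 21.8, 26.7 and 26.4, 19.8 and 22.2, and 24.6 and 27.6 CPM in the order of groups used above, with every KPC library above every control. Its log2 fold change was 0.34 ± 0.09 SE (adjusted p = 0.0084 over 48 libraries), and 0.32 in FoxP1SkmKO mice. Of 44 genes of autophagy and mitophagy, 11 were higher and 2 lower at an unadjusted p under 0.05, with a median of 0.01. After the length trend was taken out 7 were higher and 3 lower, against 941 and 955 of all 14314 genes. In FoxP1SkmKO mice 4 were higher and 0 lower, against 3.82% and 3.81% of all genes. Atg2b, which transfers lipid to the growing autophagosome, rose in WT mice (log2 fold change 0.66, adjusted p = 0.0092) and was at 0.18 in FoxP1SkmKO mice (unadjusted p = 0.12).

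The list of denervation and atrophy-induced genes, called the denervation list, had the highest median of the 25 lists, 0.40 over both genotypes. The median was 0.17 in WT and 0.37 in FoxP1SkmKO mice. Of 20 tested, 6 were higher and 0 lower at an unadjusted p under 0.05, against 9.52% of all genes higher, and 2 rose with 48 libraries. Hdac4, the deacetylase that carries the denervation response to the nucleus, was at 43.3 and 46.6 CPM in WT control, 57.2 and 62.6 CPM in WT KPC, 53.0 and 50.0 CPM in FoxP1SkmKO control, and 66.9 and 66.8 CPM in FoxP1SkmKO KPC mice. The groups did not overlap, the log2 fold change was 0.39 ± 0.07 SE, and it was 0.38 in FoxP1SkmKO mice (unadjusted p = 0.0014). Ncam1, an adhesion molecule of the synapse, had a log2 fold change of 0.81 ± 0.22 SE (adjusted p = 0.038 over 48 libraries).

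The denervation list in FoxP1SkmKO mice rested on 1 library. FoxP1SkmKO KPC mouse 2 had 34.8 CPM of Chrna1, the alpha subunit of the acetylcholine receptor, and 11.5 CPM of Sln, sarcolipin, and the other 7 libraries had 8.86 to 15.9 CPM and 0.659 to 1.76 CPM. Without that library the list's median in FoxP1SkmKO mice went from 0.37 to 0.03. The slow-fiber list kept a median of 0.17 without it, against 0.19 with it. Of 16 slow-fiber genes, 6 were higher and 1 lower over both genotypes. Myh7, the slow myosin heavy chain, was at 2.82 and 2.33 CPM in WT control, 9.93 and 6.53 CPM in WT KPC, 3.15 and 3.25 CPM in FoxP1SkmKO control, and 16.2 and 4.02 CPM in FoxP1SkmKO KPC mice. All KPC mice lay above all controls but were spread widely (log2 fold change 1.66 ± 0.33 SE, adjusted p = 0.0572). Atp2a2, the slow calcium pump, had a log2 fold change of 0.51 ± 0.10 SE and of 0.56 in FoxP1SkmKO mice (unadjusted p = 0.0012).

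Signaling lists are given by the same counts. Over both genotypes they are to be read against the 9.52% of all genes higher and 8.3% lower at an unadjusted p under 0.05. The shares were 3.82% and 3.81% in FoxP1SkmKO mice and 11.1% and 8.88% in WT mice. In either direction they were 9.24% for the difference between genotypes and 19.9% for CT26 against the other 5 times. Between the control pairs 1489 of 14314 genes were higher in FoxP1SkmKO mice at that threshold. Of 24 genes of IL-6 signaling and the acute phase, 7 were higher and 0 lower at an unadjusted p under 0.05 (median 0.18), and edgeR called 0 with 48 libraries (4 higher at an unadjusted p under 0.05) and DESeq2 1. In FoxP1SkmKO mice 4 were higher and 1 lower, with a median of 0.14 that was 0.12 without FoxP1SkmKO KPC mouse 2. For the difference between CT26 and the other 5 times, 0 of 29 were called higher and 1 lower, with 1 higher and 3 lower at an unadjusted p under 0.05. Fos, an immediate early gene, was at 2.60 and 3.35, 4.93 and 4.12, 3.15 and 3.93, and 5.27 and 7.25 CPM in the order of groups used above, without overlap between KPC and control mice. Its log2 fold change of 0.72 ± 0.18 SE had an adjusted p of 0.0796. Of 22 glucocorticoid-responsive genes, 7 were higher and 1 lower (median 0.15). In FoxP1SkmKO mice 1 was higher and 1 lower, with a median of 0.09 that was −0.06 without FoxP1SkmKO KPC mouse 2. Between the control pairs, which share the WT control libraries, 11 were higher in FoxP1SkmKO mice, with a median of 0.37. Pdk4, which blocks pyruvate oxidation, was at 202 and 214, 261 and 276, 214 and 327, and 569 and 321 CPM, with an overlap through FoxP1SkmKO control mouse 2. The 35 interferon genes had a median of 0.31 in WT and −0.30 in FoxP1SkmKO mice, with 8 higher and 3 lower in WT and 0 higher and 1 lower in FoxP1SkmKO mice, and edgeR called 0 for the difference between genotypes, with 8 at an unadjusted p under 0.05. Of 33 collagens tested, 4 were lower and 2 higher (median −0.23). For the difference between CT26 and the other 5 times, 1 of 40 collagens was called, with a higher KPC effect at CT26, and the median difference was 0.24. The median KPC effect of these 40 was itself below 0, at −0.22 at CT26 and −0.41 over the other 5 times. Over those other times 19 of them were called lower and 0 higher. Of the remaining lists, 6 of 35 glycolysis genes were higher and 5 lower at an unadjusted p under 0.05, 3 of 16 fast-fiber genes were higher and 3 lower, 4 of 26 lipid synthesis genes were higher and 1 lower, and 4 of 24 polyamine and amino acid genes were lower.

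In WT mice alone, 399 genes were called higher (2.79%) and 127 lower (0.887%), and 11.1% and 8.88% were higher and lower at an unadjusted p under 0.05. These calls were looked up in FoxP1SkmKO mice, which share no library with them. Both contrasts came from the same fit and share its estimate of each gene's spread, so their p-values are not independent. Of the 399, 325 had the same direction there (81.5%, against 49.6% of all genes higher). Of these, 56 also had an unadjusted p under 0.05 (14.0% of the 399, against 3.82% of all genes), and 2 of the 399 went the other way at that threshold. Of the 127, 112 had the same direction (88.2%, against 50.4% of all genes lower). Of these, 37 also had an unadjusted p under 0.05 (29.1% of the 127, against 3.81% of all genes), and 0 of the 127 went the other way at that threshold. The WT values chose these genes, so their sizes are given as a description: the median log2 fold change of the 399 was 0.59 in WT and 0.12 in FoxP1SkmKO mice, and that of the 127 was −0.46 and −0.16. Side by side, the same genes had medians of 0.50 and −0.38 between the FoxP1SkmKO and the WT control pairs, a comparison that shares the WT control libraries. Without WT control mouse 1, 3 genes were called in WT mice. Without WT KPC mouse 1 or 2, 104 and 166 were called.

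**Figure D3:**
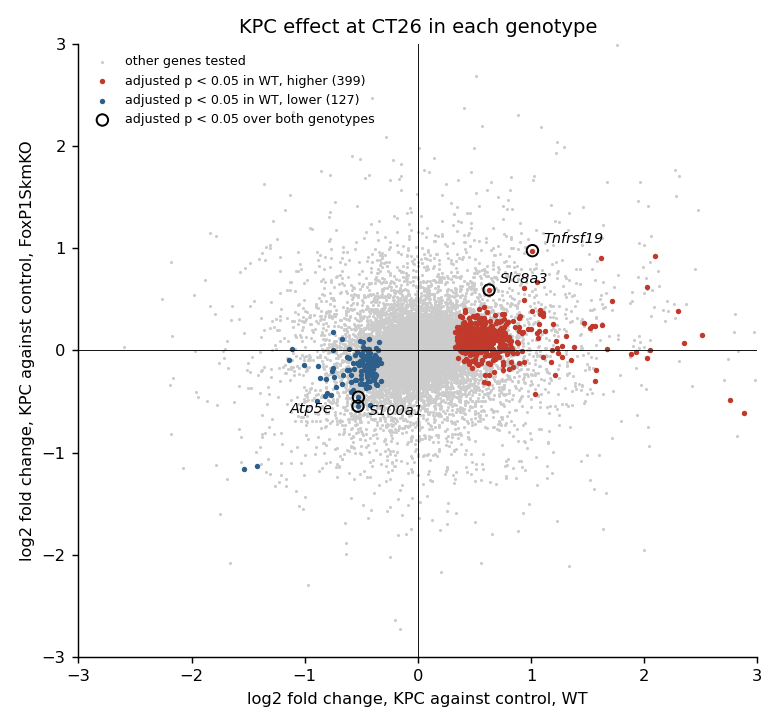
Log2 fold change of KPC against control at CT26 in WT mice (x axis) and in FoxP1SkmKO mice (y axis), 1 point per gene tested, with genes called in WT in red (399 higher) and blue (127 lower) and the 4 genes called over both genotypes circled. The red points had a median of 0.59 along x and 0.12 along y, and 17 genes lie beyond the axes.

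Fold changes in WT mice followed gene length. With the genes in 10 equal bins by length, the median log2 fold change in WT went from −0.23 in the shortest to 0.25 in the longest bin, in FoxP1SkmKO mice from −0.06 to 0.05, and between the control pairs from −0.20 to 0.23. Within a library, the longest minus the shortest bin, against the mean of all libraries, was −0.52 and −0.38 in the WT control mice, the lowest of all 48. It was −0.15 to 0.03 in the other 6 CT26 libraries and −0.28 to 0.25 in the remaining 40. Genes called higher in WT had a median length of 9814 bases and those called lower 1544 bases, against 4206 for all genes, and the median of complex I was 1532 bases.

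**Figure D4:**
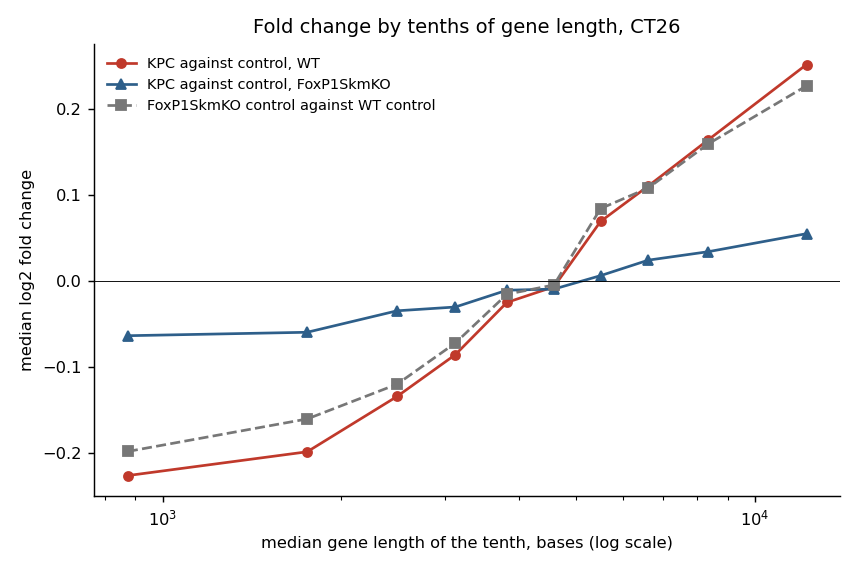
Median log2 fold change (y axis) in 10 equal bins of the 14314 genes by length (x axis, bases, log scale), for KPC against control in WT and in FoxP1SkmKO mice and for FoxP1SkmKO control against WT control mice. The WT line and the line of the control pairs rise by about the same amount, from −0.23 to 0.25 and from −0.20 to 0.23, and the FoxP1SkmKO line from −0.06 to 0.05.

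After this trend was taken out, Slc8a3 and Tnfrsf19 were still called and S100a1 and Atp5e were not, with log2 fold changes of 0.58, 0.98, −0.34, and −0.42. Complex I had 20 of 38 and complexes II to V 24 of 45 genes lower at an unadjusted p under 0.05, with medians of −0.13 and −0.16, and 0 higher. In this fit 955 of all 14314 genes were lower and 941 higher at that threshold. In FoxP1SkmKO mice 5 genes of complex I and 12 of complexes II to V were lower at that threshold, against 508 of all 14314 genes. Over both genotypes the clock list had 8 higher and 2 lower, and the denervation list 7 higher and 0 lower. Long muscle genes that were higher in WT mice, such as Neb, a ruler of the thin filament (log2 fold change 0.65), and Ryr1, the calcium release channel (0.60), had log2 fold changes of 0.24 and 0.27 in FoxP1SkmKO mice, with unadjusted p values of 0.017 and 0.012. Neb was at 3582 and 4042 CPM in WT control mice and at 5455 to 6712 CPM in the other 6 libraries.

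The effect of KPC tumors differed between the genotypes for 1 gene (0.00699%), and 9.24% of genes had an unadjusted p under 0.05 for the difference. Hipk2, a kinase of the DNA damage response (chr6:38671325-38853099 of mm39, minus strand), was at 19.7 and 34.4 CPM in WT control mice, 109.6 and 109.7 CPM in WT KPC, 107.5 and 97.8 CPM in FoxP1SkmKO control, and 107.4 and 87.2 CPM in FoxP1SkmKO KPC mice. The WT controls lay below every other library of the series, where the 40 libraries of other times ranged from 56.4 to 152.5 CPM. The log2 fold change was 2.02 in WT and −0.08 in FoxP1SkmKO mice, a difference of −2.10 (adjusted p = 0.020). Without WT KPC mouse 1 or 2, FoxP1SkmKO control mouse 1, or FoxP1SkmKO KPC mouse 2, edgeR called 0 genes for the difference, and 1269, 1168, 1234, and 995 genes had an unadjusted p under 0.05.

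Against the mean effect of the other 5 times, the CT26 effect was higher for 440 genes (2.81%) and lower for 344 (2.2%) of 15637, and 19.9% had an unadjusted p under 0.05. Without WT control mouse 1, 178 genes were called. In FoxP1SkmKO mice alone edgeR called 0, and 1369 genes had an unadjusted p under 0.05. Of the respiratory chain, 12 genes of complex I and 18 of complexes II to V were called lower at CT26 than at the other times, and 40 of 80 cytosolic ribosomal genes. The median of complex I was −0.26 at CT26 in the fit on 48 libraries and −0.10 at CT22, and lay between −0.02 and 0.04 at the other 4 times. For the cytosolic ribosome it was −0.24 at CT26 and between −0.03 and 0.13 at the other 5. Short genes in general were also lower at CT26 in this fit. The bin of genes of 1369 to 2138 bases had a median of −0.13 at CT26 and of −0.02 to 0.03 at the other 5. Complex I and the cytosolic ribosome had median gene lengths of 1532 and 1754.5 bases. The length trend was not taken out of the comparison between times, and its part there was not tested. The denervation list was at 0.40 at CT26 and between −0.18 and 0.07 at the other times. As given above, its CT26 median in FoxP1SkmKO mice rested on 1 library.

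**Figure D5:**
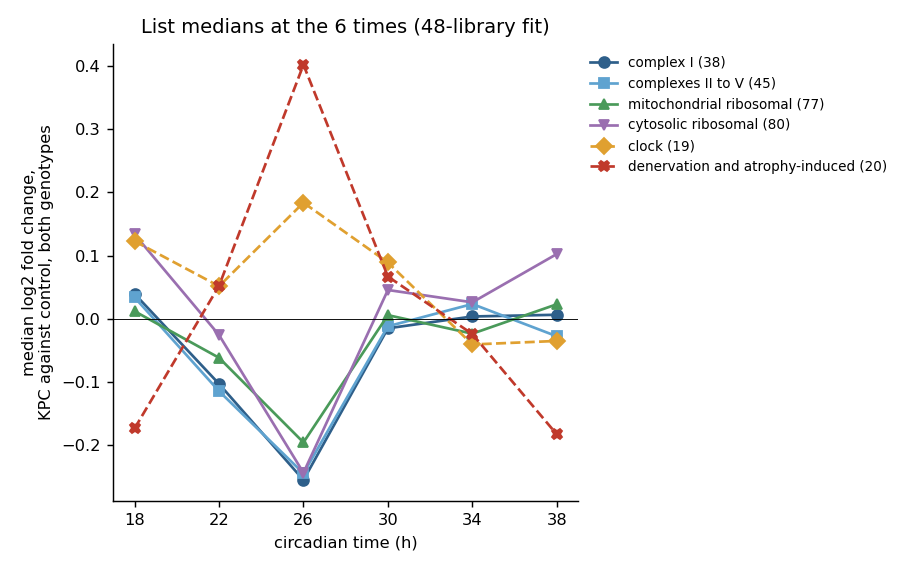
Median log2 fold change of KPC against control over both genotypes (y axis) for 6 gene lists at the 6 circadian times (x axis, h), from the fit on all 48 libraries, each time with its own 4 control libraries. Complex I and the cytosolic ribosome were lowest at CT26, at −0.26 and −0.24, and the denervation list was highest there, at 0.40. The trend with gene length was not taken out, and all genes of 1369 to 2138 bases had a median of −0.13 at CT26.

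Among called genes with a mean log2 CPM above 1 and a symbol that is not a predicted name, the 3 largest differences in each direction were as follows. Fzd10, a Wnt receptor, was at 1.52 and 1.14, 3.65 and 1.58, 1.12 and 1.63, and 2.57 and 3.28 CPM in WT control, WT KPC, FoxP1SkmKO control, and FoxP1SkmKO KPC mice, and its CT26 effect exceeded that of the other times by 1.40 on the log2 scale (adjusted p = 0.017). Fsd1l differed by 1.06 (adjusted p = 0.026) and Odf3l2 by −1.11 (adjusted p = 0.047), both with KPC and control libraries that overlapped. Rps18-ps5 (−1.52), Rps27rt (−1.45), and Hmgb1-ps8 (1.09) are by name pseudogenes or a retrogene of abundant genes, and their counts are uncertain because reads can match the parent gene.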

How the data were processed

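Tibialis anterior RNA was sequenced for 48 mice, and the 8 CT26 libraries were compared here. The authors deposited raw counts per gene on mm39, which were used for every test. They also deposited FPKM values, computed from the counts, which were used only to recover genes with a summed count under 2 that the count tables leave out. Columns with the authors' log2 fold changes, p-values, and adjusted p-values were not used. The study names STAR and HTSeq, whereas the submitters' processing notes name HISAT2 2.0.5 and DESeq2 1.20.0. The strand setting of the libraries is not given in the sources used here, so a gene and an overlapping gene on the other strand (Dbp and Sphk2, Ndufb1 and Cpsf2, Rps14 and Ndst1, for example) may share reads.

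Counts were scaled by TMM, filtered with filterByExpr over the 4 groups (14314 genes), and fitted with edgeR 4.0.16 (glmQLFit, glmQLFTest) in R 4.3.3, with genotype as covariate for the comparison of both genotypes and with 1 coefficient per group for the others. Comparisons with other times used all 48 libraries (15637 genes). Calls were made where p, adjusted over all genes by Benjamini-Hochberg, was under 0.05. SE was taken from the F statistic, and log2 fold changes are those of edgeR. Named genes were the called genes with the largest changes whose 4 KPC and 4 control libraries did not overlap, all called genes of FoxP1SkmKO mice and of the genotype difference, 3 in each direction for CT26 against other times, up to 4 members of each list with the lowest p, leading members of a pathway, Foxp1, and the clock genes. The members and the 25 gene lists were chosen with earlier results of these data known. Replicates differed by more than counting noise (chi-square per degree of freedom 7.00 to 11.0). Depth was 14599024 to 19235435 counts, and p-values rest on the spread between 2 mice per group. Alternatives were upper-quartile scaling, no filter, a replicate block, removal of trends with gene length or GC content, left-out libraries, separate fits, DESeq2 1.42.0, and the 48-library fit. The test was tested on simulated data.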

Additional observations from a re-analysis of the deposited data

Results flagged for a closer look

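The difference of the KPC effect between the genotypes passed its own test for Hipk2, by −2.10 on the log2 scale (adjusted p = 0.020, edgeR), with WT control mice at 19.7 and 34.4 CPM and all 6 other CT26 libraries at 87.2 to 109.7 CPM. The low values were those of the WT control pair, which stood apart in other measures too, and their part in this difference was not tested.

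The effect at CT26 differed from the mean effect of the other 5 times, by the test of that difference, for 784 genes. By the rule for named genes, the largest were Rps18-ps5 (−1.52), Rps27rt (−1.45), and Odf3l2 (−1.11) on the lower side and Fzd10 (1.40), Hmgb1-ps8 (1.09), and Fsd1l (1.06) on the higher side, all in log2 units. Without WT control mouse 1 the count was 178, and without WT control mouse 2 it was 1054.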

How the results depend on the processing

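Over both genotypes 4 genes were called, 6 with upper-quartile scaling, 798 without the filter on low counts, 2 with the length trend removed, 35 with the GC trend removed, 0 for the 4 KPC against the 2 FoxP1SkmKO control libraries (613 at an unadjusted p under 0.05), 2 in a fit of the FoxP1SkmKO mice alone, 575 with DESeq2, and 982 with 48 libraries, and 0 to 91 without 1 library. In FoxP1SkmKO mice the 2 calls became 165 without the filter, 0 with the length trend removed (1027 unadjusted), 17 with DESeq2, 6 with 48 libraries, and 1 to 37 without 1 library. In WT mice the 526 calls became 1097 without the filter, 50 with the length trend removed, 345 in a fit of the 4 WT libraries, 1121 with 48 libraries, and 3 to 542 without 1 library. For the difference between genotypes the 1 call became 205 without the filter, 35 with DESeq2, 54 with 48 libraries, and 0 to 30 without 1 library. For CT26 against the other times the 784 calls became 0 in FoxP1SkmKO mice alone (1369 unadjusted) and 178 to 1054 without 1 library. Between the control pairs the 306 calls became 943 with 48 libraries and, in an alternative added after the data were seen, 5 to 409 without 1 library. Of list members 1 was called, 128 with 48 libraries, 136 with DESeq2, and 0 with the length trend removed (217 unadjusted). The fit of the 4 KPC against the 2 FoxP1SkmKO control libraries had no genotype term. It therefore set WT KPC mice against controls of the other genotype. Causes were not tested.

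Replicate numbers were not used as pairs in the main fits, and deviations of same-numbered mice correlated at only −0.08 to 0.04. These correlations describe expression and cannot show whether the mice were paired by design. With a replicate block 3 genes were called over both genotypes, 0 in FoxP1SkmKO mice (1035 unadjusted), 421 in WT mice, 0 for the difference between genotypes (1240 unadjusted), and 763 against the other times.

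Of the alternative values of single genes, 893 kept direction and side of the threshold, 162 newly passed, 67 no longer passed, and 11 changed sign. Per2 went to −0.089 and mt-Co2 to 0.27 against the 2 FoxP1SkmKO controls, in a fit without a genotype term. Within each genotype the KPC mice lay below the controls for mt-Co2. Trim63 was at 0.041 with the length trend removed, 0.063 against the 2 FoxP1SkmKO controls, 0.13 in FoxP1SkmKO mice alone, and −0.087 to 0.087 without 1 library. Without 1 library Foxp1 was at −0.11 to 0.11 and Chrna1 at −0.0047 to 0.72.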
